A study of Rattus norvegicus with 6 samples.

Results

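Expression of 6 astrocyte genes was followed in RNA from the superficial superior colliculus of rats whose eyelids were kept closed or whose eyes were open. They were chosen by name, as the Ensembl rat gene IDs of Gfap (ENSRNOG00000002919), Aqp4 (ENSRNOG00000016043), Slc1a2 (ENSRNOG00000005479), Slc1a3 (ENSRNOG00000016163), Gja1 (ENSRNOG00000000805) and S100b (ENSRNOG00000001295), and make up 6 of the 26402 IDs measured. The tables carry IDs without symbols, and no table used here pairs the IDs with symbols, so the names rest on the choice of IDs and were not checked in the files. All animals were Sprague Dawley rats at postnatal day 20. Eyelids of the closed group stayed glued shut between days 14 and 20, and those of the open group were not. From each group came 3 libraries of polyadenylated RNA, 1 from each of the batches labelled A, B and C, 6 libraries in all. The labels do not say what a batch was, nor how many animals, or of which sex, went into a library, so p-values measure the spread between these libraries, which may be technical.

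Astrocytes are the glial cells that surround synapses and blood vessels. Gfap encodes the intermediate filament protein by which astrocytes are most often recognised, and Aqp4 the water channel of their end-feet on vessels. Slc1a2 and Slc1a3 encode the glutamate transporters that clear transmitter from the space around synapses, which in these layers is released in part by retinal axons. Gja1 encodes a connexin of the gap junctions that couple astrocytes. S100b encodes a small calcium-binding protein that is also made by cells of the oligodendrocyte lineage. In whole tissue, fewer astrocytes and less RNA per astrocyte cannot be told apart.

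The comparison asks whether these transcripts differ between rats with glued and with open eyelids. The test called 0 of the 6 genes. Gfap had the largest difference, from a mean of 133.6 FPKM with open eyes to 113.0 FPKM with closed eyes, and S100b differed most between batches as deposited. FPKM counts fragments relative to transcript length and to the fragments of the library. Levels of different genes can be set side by side only as far as the annotated lengths hold.

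The proximal promoters of 4 of the genes are shown for these patterns: Gfap had the largest difference between eye conditions and S100b the largest between batches as deposited. Aqp4 and Slc1a2 had profiles that ran alongside each other over the libraries. As deposited, Slc1a3 and Gja1, not shown, correlated more highly (Pearson 0.974) than Aqp4 and Slc1a2 (0.959). Each sequence is the 250 bases before the first listed transcript start in RefSeq (build GRCr8, gene strand, 5′ to 3′). Capitals mark matches, on either strand, to any of 6 short motifs. TATAAA is the TATA box, CCAAT the CCAAT box, and GGGCGG the GC box that Sp1 factors bind. TTGGC is a core of the sites of NFI factors, which act in astrocyte development, TTCNNNGAA is the element of STAT factors, and TGANTCA that of Fos and Jun.
Gfap, chr10:88361662-88361911, minus strand: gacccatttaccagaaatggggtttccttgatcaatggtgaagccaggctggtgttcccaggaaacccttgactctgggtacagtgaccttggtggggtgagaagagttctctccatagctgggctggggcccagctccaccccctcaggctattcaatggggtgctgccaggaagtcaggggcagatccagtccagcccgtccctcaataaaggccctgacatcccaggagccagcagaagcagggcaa
Aqp4, chr18:6798843-6799092, minus strand: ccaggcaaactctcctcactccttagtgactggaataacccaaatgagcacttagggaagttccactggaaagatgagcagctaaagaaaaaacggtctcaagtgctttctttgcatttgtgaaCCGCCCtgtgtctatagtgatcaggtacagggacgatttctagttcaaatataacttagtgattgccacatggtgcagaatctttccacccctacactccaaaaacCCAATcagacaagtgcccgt
Slc1a2, chr3:109459859-109460108, plus strand: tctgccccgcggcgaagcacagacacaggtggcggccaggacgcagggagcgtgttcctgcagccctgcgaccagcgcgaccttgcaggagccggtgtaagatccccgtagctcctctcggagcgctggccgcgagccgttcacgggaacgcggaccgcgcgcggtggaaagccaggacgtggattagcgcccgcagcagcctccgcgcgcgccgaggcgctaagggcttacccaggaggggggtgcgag
S100b, chr20:12381082-12381331, minus strand: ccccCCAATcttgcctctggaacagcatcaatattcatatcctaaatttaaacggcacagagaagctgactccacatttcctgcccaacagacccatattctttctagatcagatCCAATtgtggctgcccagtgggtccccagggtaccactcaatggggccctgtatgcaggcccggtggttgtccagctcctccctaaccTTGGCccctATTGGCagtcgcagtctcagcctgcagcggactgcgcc

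The Gfap window and the first Slc1a2 window held none of the 6 motifs. Aqp4 held 1 CCAAT box, from 20 to 16 bases before the start, and 1 GC box. S100b held 3 CCAAT boxes and 2 NFI cores. A CCAAT box and an NFI core overlap between 38 and 33 bases before its start. Among all 33469 promoter windows of the same length, 34.0% held a CCAAT box, 40.3% an NFI core and 30.5% a GC box. Of the windows not shown, that of Gja1 held the TGANTCA motif once, from 58 to 52 bases before the start, where 6.34% of all windows held it. The windows of the 3 Slc1a3 starts overlap and share 1 NFI core. It begins 84, 95 and 105 bases before the respective start. The window of the second Slc1a2 start also held 1 NFI core. The GC content of the windows shown was 57.6% in Gfap, 44.8% in Aqp4, 71.2% in Slc1a2 and 54.8% in S100b, where the median window had 51.2%. The window of the second start had 51.6% in Aqp4, with none of the 6 motifs, and 45.6% in Slc1a2. These matches describe letters only, and no binding was measured.

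The table of FPKM values does not keep the sequencing depth of a library. In the authors' deposited table the 6 genes had mean normalized counts of 9720 (Gja1) to 20544 (Aqp4). Counting error alone at such counts is 0.698% to 1.01% of a value, which does not cover variation between animals or preparations. Batch C libraries had lower values in general. Of the IDs tested, which were the 12351 that averaged 1 FPKM or more, the median one had 7.88 and 8.03 FPKM in the batch C libraries and 8.96 to 9.39 FPKM in the other 4. Values are therefore given as deposited and, where it matters, also after median scaling, in which all libraries are brought to a common median. Markers of neurons, oligodendrocytes, microglia, vessels and meninges could not be matched to IDs, so the share of other cell types in each library was not tested.

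All 6 genes were abundant and passed the filter of 1 FPKM. S100b led with a mean of 332.8 FPKM over the 6 libraries, followed by Slc1a2 with 241.9, Aqp4 with 207.3, Gja1 with 136.3, Slc1a3 with 126.6 and Gfap with 123.3. The highest, S100b, ranked 68th and the lowest, Gfap, 298th of the 12351 IDs. Each of these genes stood above the next in 6 of 6 libraries, except that Slc1a3 stood above Gfap in only 4 of 6, so the order of Slc1a3 and Gfap is within their spread. The order also rests on the annotated transcript lengths: 1 FPKM stood for 40.8 mean normalized counts in Slc1a2 and for 102 in Gfap. The 6 genes together took 0.266% (closed B) to 0.344% (open A) of the summed FPKM of a library. As deposited, 3 of the 6 genes varied least. The coefficient of variation over the 6 libraries was 7.34% for Gja1, 7.70% for Aqp4 and 8.33% for Slc1a3. Of tested IDs, nearly all of them at lower levels than these genes, 81.6% to 86.7% varied more. The coefficient was 11.8% for Slc1a2 and 13.0% for Gfap, where 59.9% and 52.4% of IDs varied more, and 20.8% for S100b, where 17.5% did.

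**Figure D1:**
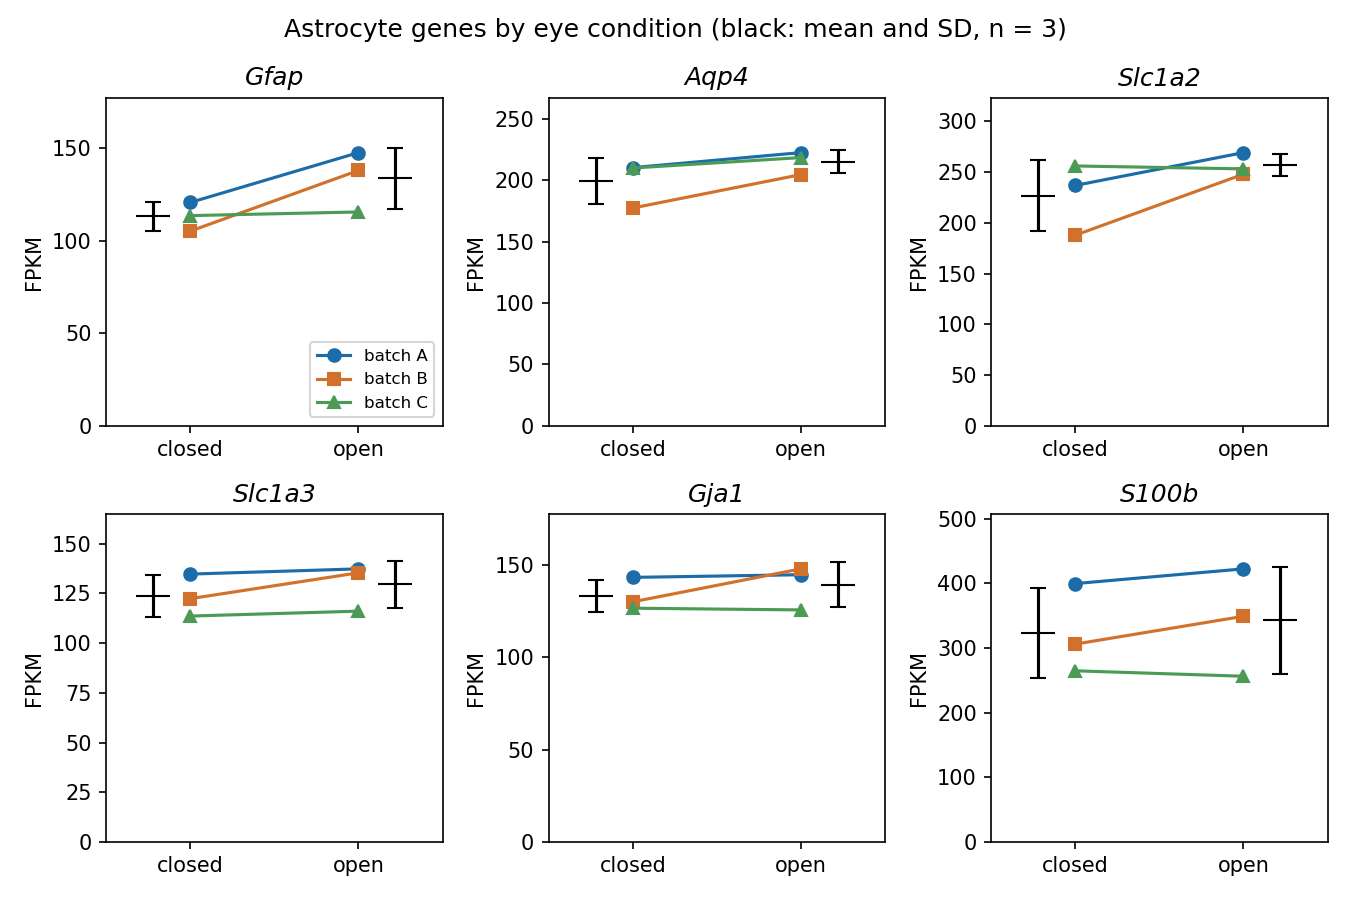
FPKM of the 6 astrocyte genes (y axes, from 0) in closed and open eyes, with lines joining the libraries of one batch and black bars for mean and SD of 3 libraries. Groups overlap in every panel, Gfap is lower in closed eyes in all 3 batches, and the S100b lines are ordered by batch.

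Gfap, the filament gene, was at 120.6, 105.1 and 113.5 FPKM in the closed libraries of batches A, B and C and at 147.5, 137.9 and 115.4 FPKM in the open ones. The closed library was below the open one in every batch, but open C lay below closed A, so the groups overlapped. The closed-to-open ratio was 0.818 in A, 0.763 in B and 0.983 in C, so batch C showed almost no difference. Mean and SD over 3 libraries were 113.0 ± 7.74 FPKM for closed and 133.6 ± 16.4 FPKM for open eyes. In limma the log2 difference was -0.23 (SE 0.15, adjusted p = 1, unadjusted p = 0.164), a fold of 0.850 with a 95% interval of 0.665 to 1.09. With batch as a block the interval was 0.751 to 0.962, the unadjusted p was 0.0160 and the adjusted p 0.752. The log2 difference was -0.16 without the libraries of batch B and -0.34 without those of batch C. Gfap was also set against the mean log2 level of the other 5 genes in the same library, which does not depend on library scaling. Gfap was again lower in closed eyes in all 3 batches (A -0.21, B -0.16, C -0.022, log2). By this measure Gja1 (0.12, 0.081, 0.021) and S100b (0.040, 0.076, 0.064) were higher in closed eyes in all 3 batches. These values are tied, since each gene is set against the others.

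Aqp4, the water channel, was at 210.4, 177.5 and 210.1 FPKM with closed eyes and at 222.7, 204.7 and 218.6 FPKM with open eyes in batches A, B and C. Closed B stood apart as the lowest of the 6 libraries, and the remaining 5, closed and open intermixed, lay within 204.7 to 222.7 FPKM. Closed libraries averaged 199.3 ± 18.9 FPKM and open ones 215.3 ± 9.39 FPKM (SD, n = 3), a log2 difference of -0.11 (SE 0.15, limma adjusted p = 1) with a fold interval of 0.727 to 1.17. With the block the interval was 0.836 to 1.02 (adjusted p = 0.803). Without closed B the log2 difference shrank to -0.033.

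Slc1a2, the transporter that carries out most glutamate uptake in the mature forebrain, was at 236.9, 187.9 and 256.1 FPKM in closed A, B and C and at 269.3, 248.0 and 253.2 FPKM in open A, B and C. It was lower with closed eyes in batches A and B and level in C, where the ratio was 1.01. The groups overlapped, and closed B was again the lowest library, with a closed-to-open ratio of 0.758 in that batch. Closed libraries averaged 227.0 ± 35.2 FPKM and open ones 256.8 ± 11.1 FPKM (SD, n = 3). The log2 difference of -0.19 (SE 0.17, limma adjusted p = 1) had a fold interval of 0.669 to 1.15, and of 0.769 to 1.0 with the block (adjusted p = 0.781). It was -0.059 without closed B.

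Slc1a3, the transporter that dominates in developing and radial glia, was at 134.8, 122.4 and 113.6 FPKM in closed and at 137.4, 135.4 and 116.1 FPKM in open libraries of batches A, B and C. The batch C libraries were the lowest of each group, and each closed library was slightly below its open partner. Closed libraries averaged 123.6 ± 10.6 FPKM and open ones 129.6 ± 11.8 FPKM (SD, n = 3). The log2 difference was -0.068 (SE 0.15, limma adjusted p = 1), with a fold interval of 0.753 to 1.21 without and 0.867 to 1.05 with the block (adjusted p = 0.841). After median scaling the closed library was lower in 2 of 3 batches. Over single libraries left out, the log2 difference ran from -0.15 (without open C) to -0.0094 (without closed C).

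The ratio of Slc1a2 to Slc1a3 within a library, which library scaling does not move, was 1.76, 1.53 and 2.25 in closed A, B and C and 1.96, 1.83 and 2.18 in open A, B and C. It was highest in both libraries of batch C and lowest in closed B. The ratio averaged 1.85 ± 0.368 with closed and 1.99 ± 0.177 with open eyes (SD, n = 3), which gave p = 0.5 in an exact two-sided permutation test whose smallest possible p is 0.1. Closed minus open, the log2 ratio was -0.16 in A, -0.25 in B and 0.047 in C (exact paired permutation p = 0.5, smallest possible 0.25). Without closed B the difference of the means was 0.0035.

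Gja1, the gap junction gene, had the smallest coefficient of variation of the 6 as deposited. Its values were 143.2, 130.0 and 126.5 FPKM in closed and 144.7, 147.8 and 125.6 FPKM in open libraries of batches A, B and C. The groups overlapped, and only batch B showed a gap, with a closed-to-open ratio of 0.880, against 0.990 in A and 1.01 in C. Closed libraries averaged 133.3 ± 8.81 FPKM and open ones 139.4 ± 12.02 FPKM (SD, n = 3). The log2 difference was -0.063 (SE 0.14, limma adjusted p = 1), with a fold interval of 0.760 to 1.21 without and 0.864 to 1.06 with the block (adjusted p = 0.853). The log2 difference was -0.0018 without both libraries of batch B and -0.14 without open C.

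S100b was at 399.4, 305.9 and 264.5 FPKM in closed and at 422.1, 348.8 and 256.1 FPKM in open libraries of batches A, B and C. Both batch A libraries were above both of batch B, and those above both of batch C, whatever the eye condition. Closed libraries averaged 323.3 ± 69.1 FPKM and open ones 342.4 ± 83.2 FPKM (SD, n = 3). The log2 difference of -0.074 (SE 0.24, limma adjusted p = 1) had a fold interval of 0.647 to 1.39, the widest of the 6. With the block the interval narrowed to 0.853 to 1.06 (adjusted p = 0.842). The sign of this difference turned without closed C (0.060) and without open A (0.092), so no direction is read from it.

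**Figure D2:**
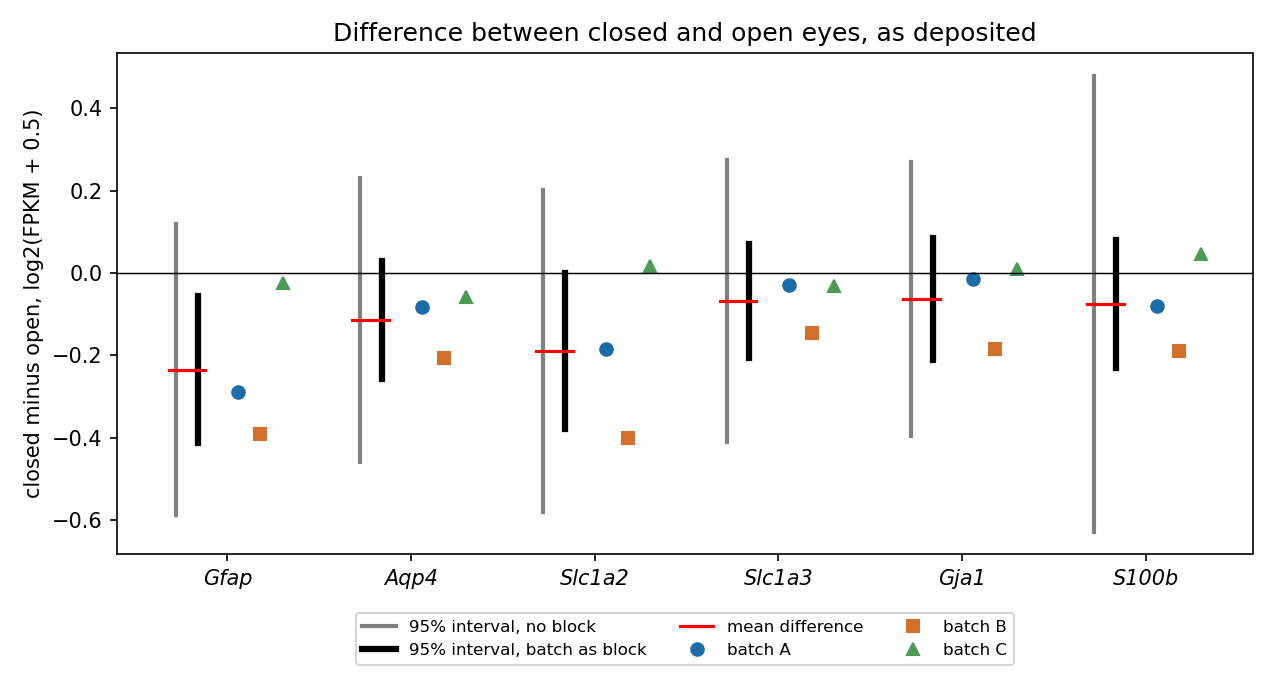
Closed minus open on the log2(FPKM + 0.5) scale (y axis) for each gene: red ticks give the mean difference, grey and black bars its 95% interval without and with batch as a block, and points the difference in each batch. All 6 grey bars cross 0, while the black bar of Gfap lies below 0 and that of Slc1a2 just reaches it. Batch B gives the lowest point for every gene.

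Set beside all IDs, the 6 genes gave few signs of a difference. In limma 0 of 6 genes were called at an adjusted p under 0.05, as were 0% of the 12351 tested IDs, and 0 of 6 had an unadjusted p under 0.05, against 0.542% of IDs. With the block 0 of 6 were called, against 0.0081% of IDs. Gfap, 1 of 6, had an unadjusted p under 0.05 and a lower level in closed eyes with the block, as did 4.32% of IDs. Slc1a2 stood at the threshold, with an unadjusted limma p of 0.0502 with the block (adjusted p = 0.781). It was 0.0499 and 0.0498 with pseudocounts of 0.1 and 1, which would make it 2 of 6. In those fits 787 and 792 of the 12351 IDs had an unadjusted p under 0.05, in either direction. Gfap was below the threshold too after median scaling (adjusted p = 0.767), against 2.77% of IDs. For 0 of 6 genes did all closed libraries lie below all open ones, which held for 2.21% of IDs. The closed library was lower in all 3 batches for 3 genes, Gfap, Aqp4 and Slc1a3 (19.5% of IDs), and after median scaling for 3 genes, Gfap, Aqp4 and Slc1a2 (14.1% of IDs). For Slc1a2 the median-scaled ratio in batch C was 0.993. With median-of-ratios scaling, an alternative, Slc1a2 was lower in 2 of 3 batches. The mean difference was below 0 for 6 of 6 genes, as it was for 65.3% of IDs as deposited and 51.0% after median scaling. The median log2 difference of the 6 genes was -0.094, where that of all IDs was -0.034. After median scaling these were -0.060 and -0.0022. This shared direction did not hold throughout. As deposited, S100b turned without closed C or without open A, and without closed B all 6 stayed below 0. With median scaling and closed B left out together, a choice made after seeing the data, the difference was 0.027 for Aqp4, 0.0010 for Slc1a2, 0.014 for Gja1 and 0.015 for S100b, and stayed below 0 for Gfap (-0.12) and Slc1a3 (-0.0026).

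The authors' own comparison also called 0 of 6 genes, where it called 0.0344% of 20347 IDs with a p-value. In the authors' deposited table the log2 fold of closed over open was -0.17 for Gfap (p = 0.0139, adjusted p = 1) and -0.11 for Slc1a2 (p = 0.106). It was slightly above 0 for the other 4 genes in that table: 0.020 for Aqp4, 0.039 for Slc1a3, 0.027 for Gja1 and 0.024 for S100b. For these 4 the deposited fold and the FPKM difference thus have opposite signs, both small. Gfap, 1 of 6 genes, was lower in closed eyes at an unadjusted p under 0.05 there, as were 0.821% of IDs, and ranked 163rd by p. The direction of the deposited fold is not stated. The table is named with closed first, which can be read as closed over open, but its folds correlated negatively with the FPKM folds of closed over open, at -0.690 (Pearson) and -0.765 (Spearman) across 11147 IDs. All signs given from it were therefore turned. With the other reading each would be reversed: Gfap and Slc1a2 would be the genes whose sign differs from FPKM, and Gfap would be higher in closed eyes. Since the authors' fold and the FPKM rest on the same 6 libraries, neither is independent of the other.

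Some of the 6 genes differed between batches. In a limma fit with batch and eye condition, 1 of 6 genes, S100b, was called for batch (adjusted p under 0.05), against 49.7% of IDs. After median scaling 3 of 6 genes were called, S100b, Aqp4 and Slc1a2, against 29.6% of IDs. S100b spanned 0.66 on the log2 scale between its highest batch, A, and its lowest, C (F-test, adjusted p = 0.00215), and 0.45 after median scaling (adjusted p = 0.0130). Its call was lost with quantile scaling (0.25, adjusted p = 0.0858), and Slc1a2 spanned more than S100b with quantile (0.52), upper-quartile (0.45 against 0.42) and median-of-ratios scaling (0.45 against 0.43). After median scaling Aqp4 spanned 0.37 (adjusted p = 0.0202) and Slc1a2 0.44 (adjusted p = 0.0289), both highest in batch C and lowest in B. As deposited these spans were 0.18 and 0.24 (adjusted p = 0.122 for each). Without closed B, which left 1 library in batch B, the median-scaled span shrank from 0.37 to 0.30 for Aqp4 and from 0.44 to 0.27 for Slc1a2. That of S100b stayed at 0.45. The median-scaled spans of Aqp4 and Slc1a2 thus rested in part on closed B. Gfap (0.22, adjusted p = 0.174), Slc1a3 (0.24, adjusted p = 0.0555) and Gja1 (0.19, adjusted p = 0.150) were not called as deposited, nor after median scaling. The median batch span of the 6 genes was 0.23 as deposited and 0.26 after median scaling, where that of all IDs was 0.33 and 0.26.

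**Figure D3:**
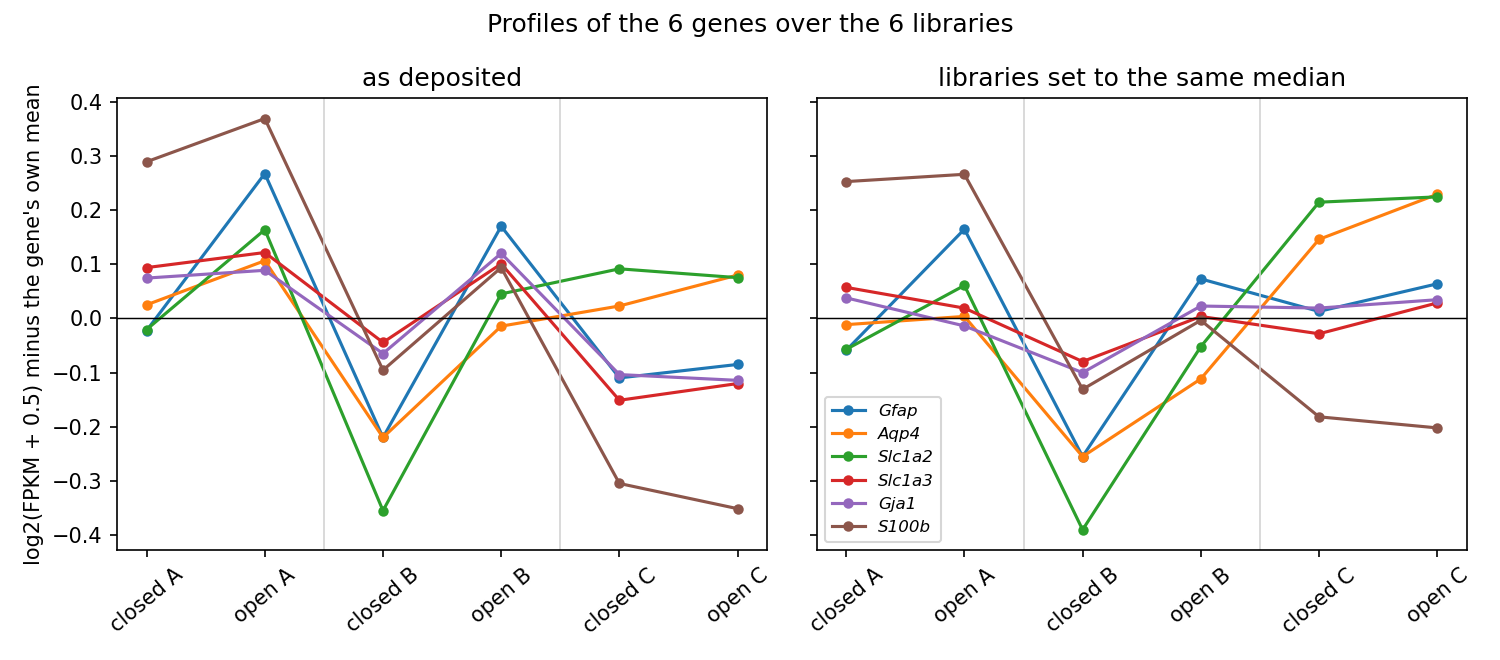
Log2(FPKM + 0.5) of each gene minus its own mean over the 6 libraries (y axis), ordered by batch along the x axis, as deposited (left) and after median scaling (right). S100b descends from batch A to C, Slc1a2 and Aqp4 dip together in closed B, and in batch C these lie above S100b.

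The 6 genes did not share 1 profile over the libraries. Aqp4 and Slc1a2 ran together, with a Pearson correlation of 0.959 over the 6 libraries as deposited (Spearman 0.714) and 0.955 after median scaling (Spearman 0.943). Without the pair of libraries farthest from the median of Aqp4 these Pearson values were 0.263 and 0.910, so as deposited the relation rests on closed B and open A. Of all IDs, 0.300% correlated with Aqp4 at least as highly as Slc1a2 did as deposited, and 1.53% after median scaling. Slc1a3, Gja1 and S100b correlated at 0.901 to 0.974 with each other as deposited. Such values were common for some pairs. Of all IDs, 0.364% correlated with Gja1 at least as highly as Slc1a3 did, but 16.5% with S100b at least as highly as Gja1 did. After median scaling Slc1a3 and Gja1 stood at 0.824, Slc1a3 and S100b at 0.573, and Gja1 and S100b at 0.152. Gja1 was then closer to Slc1a2 (0.784) and Aqp4 (0.728) than to S100b, so the 3 genes did not stay a set after scaling. The general drop of values in batch C is part of the deposited values of all 6 genes, and its part in these correlations was not tested. Gfap was closest to Gja1 as deposited (0.802) and to Slc1a2 after median scaling (0.766). These correlations are descriptions over libraries that share batches and library totals.

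**Figure D4:**
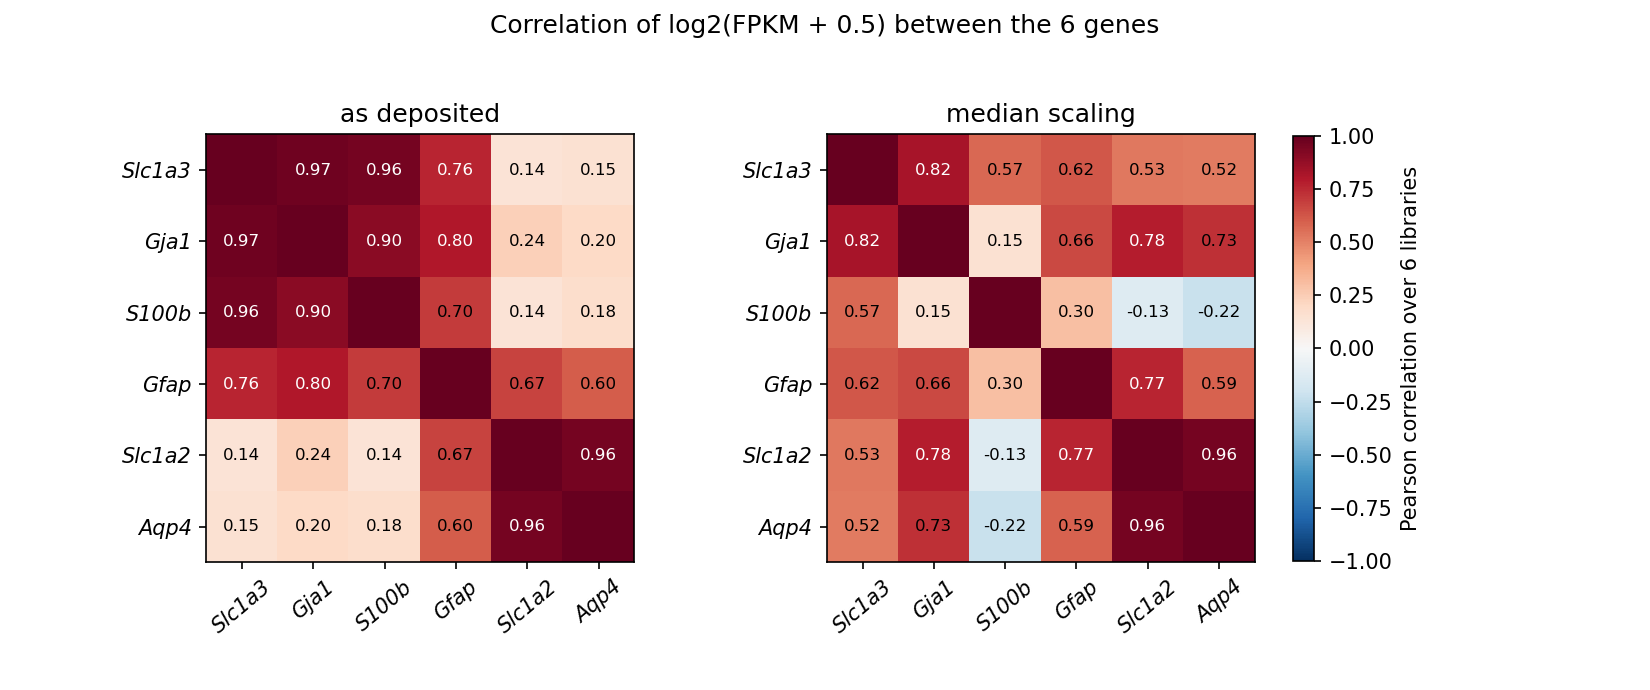
Pearson correlation of log2(FPKM + 0.5) over the 6 libraries for each pair of genes, as deposited (left) and after median scaling (right), with colour from -1 (blue) to 1 (red). Aqp4 and Slc1a2 keep 0.96 in both panels, while S100b goes from 0.90 to 0.15 with Gja1.

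A contrast within libraries, with its sets taken from the deposited profiles, describes this parting of the genes without any library scaling. The mean log2 level of Aqp4 and Slc1a2 minus that of Slc1a3, Gja1 and S100b was 0.57 in closed C and 0.60 in open C. It was 0.18 and 0.27 in closed and open A, and 0.11 and 0.24 in closed and open B. Both libraries of batch C were above the other 4, and closed was below open in each batch. This contrast was chosen after the profiles were seen and is given without a test, so it adds no support for the sets.

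Of the other 12345 tested IDs, the one most like the mean profile of the 6 genes was ENSRNOG00000001088 (Pearson 0.994 over 6 libraries), at 5.07, 3.69 and 3.93 FPKM in closed and 5.75, 5.18 and 4.14 FPKM in open A, B and C. Next came ENSRNOG00000016309 (0.993), at 9.09, 7.35 and 7.99 FPKM in closed and 9.59, 9.03 and 7.92 FPKM in open A, B and C. In all, 351 IDs (2.84%) correlated with that profile at 0.9 or more, and no symbol was available for these IDs.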

How the data were processed

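Polyadenylated RNA of 6 libraries was measured. The authors deposited FPKM values per Ensembl gene ID. The authors also deposited the outcome of a DESeq2 comparison, the tool named in one of its columns: a signal per ID that by its size is a mean normalized count, a log2 fold, a p-value and an adjusted p-value. Per the submitters' processing notes the tools were STAR 2.3.14z, featureCounts 1.4.4, Cufflinks 2.1.1 and DESeq2 1.4.1, with rn5 as the genome build. The annotation, any filters and the tool behind the FPKM are not given in the sources used.

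The fit used limma 3.58.1 in R 4.3.3 (statmod 1.5.0) on log2(FPKM + 0.5) for all 12351 IDs that averaged 1 FPKM or more. Variances were moderated with a trend and robustly, tests were two-sided, and p-values were adjusted over all of these by Benjamini-Hochberg at 0.05. Fold changes are on that log2 scale. FPKM depends on the annotated transcript length and on the library total, and both can shift a level. The batch test was limma's F-test with eye condition in the fit. Ratios were compared by exact permutation. The labels give closed and open libraries the same batch letters, which pairs them. Deviations from the group means correlated at 0.361, 0.441 and 0.525 within batches A, B and C, and at -0.375 to -0.0508 across batches. Such deviations cancel out within a group, so the values within and across batches are tied. Alternatives were pseudocounts of 0.1 and 1, filters, 4 scalings, plain moderation, omission of libraries or batches, and the block. Fits were tested on simulated data.

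The 6 genes, the lists and the tests were chosen with earlier results of these data known. Named beyond the 6 genes are the pair of IDs most like their mean profile. The planned lists of other astrocyte genes and of other cell types were not used, because 0 of 47357 rows of the reference gene table hold an Ensembl ID. All 6 symbols were found in the RefSeq promoter table.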

Additional observations from a re-analysis of the deposited data

How the results depend on the processing

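Median-of-ratios scaling, and median scaling with closed B left out, were chosen after seeing the data. The differences between closed and open eyes for the 6 genes gave 138 values under alternatives. Of these 0 were called (lowest adjusted p = 0.733) and 6 had the opposite sign: S100b over single libraries left out (-0.27 to 0.092), and Aqp4 (0.027), Slc1a2 (0.0010), Gja1 (0.014) and S100b (0.015) with median scaling and closed B left out. The paired fit, with a replicate block, changed no call of the 6 genes. Over all IDs it called 1, as it did with pseudocounts of 0.1 and of 1, and 0 with median scaling, against 0 without the block. Omission of 1 library called 0 to 3 IDs. Omission of batch A, B or C called 3, 5 and 3, and median scaling with closed B left out 3. The log2 ratio of Slc1a2 to Slc1a3 ranged from -0.27 to 0.0035 over omitted libraries.

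Between batches, 6138 IDs were called, against 3462 with quantile, 3730 with upper-quartile, 3650 with median and 3649 with median-of-ratios scaling, 1658 to 4875 with 1 library left out, and 972 with median scaling and closed B left out. Aqp4 and Slc1a2 became called with quantile (0.52 and 0.52), upper-quartile (0.38 and 0.45), median (0.37 and 0.44) and median-of-ratios scaling (0.38 and 0.45), Slc1a3 with a filter at 5 FPKM (0.24), and S100b lost its call with quantile scaling (0.25). Gfap spanned 0.075 to 0.36 over omitted libraries and was called without closed C (0.21). The filters and omitted libraries change the number of IDs or samples tested, and the cause was otherwise not tested. The 0 calls of the authors' deposited table stayed 0 at an adjusted p under 0.1. Sequencing depth is unknown, and 3 libraries a group limit the intervals more than counting error does.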
